A study of Homo sapiens with 12 samples.

Results

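The 40 genes described here encode factors that build ribosomes: the RNA polymerase I machinery, the nucleolar small RNA-protein complexes (snoRNPs) and the assembly factors of the 40S and 60S subunits. They were taken by symbol from a read count table of 54628 gene symbols, and all 40 were found. Poly(A) RNA was sequenced after 24 h of treatment of OCI-AML3, a human cell line established from acute myeloid leukaemia. The groups, each of 3 libraries, were ABT199 (venetoclax, an inhibitor of the survival protein BCL2), ERKi (an inhibitor of the kinase ERK, given in the labels as compound 27), Comb (ABT199 and ERKi together) and DMSO, the solvent control. Doses are not stated in the labels, and every group is the same single cell line. Whether replicates are separate cultures is not given in the labels, and p-values here reflect only how far these libraries differ, which may be technical.

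Ribosomes are made in the nucleolus, where RNA polymerase I transcribes the precursor of the large ribosomal RNAs. Box C/D snoRNPs then guide 2'-O-methylation of that RNA and box H/ACA snoRNPs its pseudouridylation, while the small-subunit processome and the 60S factors cut, fold and assemble the subunits. MYC activates many of these genes, and ERK is known to phosphorylate the polymerase I factors UBTF and RRN3, so ribosome production follows growth signalling. RNA levels measure neither that phosphorylation nor rRNA synthesis.

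Library totals ran from 19199296 to 21275065 counts. All 40 genes passed the filter on low counts, which kept 15173 genes. Levels are in CPM, the count divided by the library size after TMM scaling and multiplied by 1000000. TMM takes most genes as unchanged, so a shift of all RNA alike would not show. At an adjusted p under 0.05 (edgeR), 69.7% of all genes tested differed between ERKi and DMSO. The share was 63.8% between Comb and DMSO and 50.9% between Comb and ERKi, so by these calls most genes were not unchanged. In bulk RNA, fewer cells of a kind and less RNA per cell cannot be told apart. Of the ERK output genes, DUSP6 was at -2.71 with ERKi and -3.53 with Comb, and ETV4 at -5.14 with ERKi and -4.28 with Comb (log2 fold change against DMSO), all called lower. All 10 myeloid markers were detected, with a summed level of 1560 to 1590 CPM with ABT199, 4890 to 5060 with ERKi, 6360 to 6610 with Comb and 1650 to 1720 with DMSO. The 7 stromal markers summed to 16.1 to 30.2, 12 to 30.4, 2.1 to 2.48 and 6.28 to 40.6 CPM in the same groups, and the T and NK cell, B cell and epithelial lists stayed at or below 2.42 CPM, with CD3D, MS4A1 and EPCAM at 0 counts throughout. Much of the myeloid sum was LYZ, at 2360.95 to 2513.37 CPM with ERKi, 3854.92 to 4075.56 with Comb and 195.94 to 216.01 with DMSO. Between ERKi and DMSO, MPO was lower (0.85 to 1.26 against 1.41 to 2.03 CPM), CD4 overlapped, and the other myeloid markers were higher. The part of these markers in the results was not tested.

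Among the controls, DMSO replicate 1 differed most: its counts gave chi-square values of 17.11 and 16.17 per degree of freedom against the others, and the remaining replicate pairs gave 2.3 to 5.32. It held the highest DMSO level for 24 of the 40 genes and the lowest for 13, from 75.8% (UTP20) to 134% (PPAN) of the mean of the other DMSO libraries, leaving out RRN3. Mitochondrial ribosomal RNA took 0.917 to 0.929% of counts with ABT199, 1.28 to 1.49% with ERKi, 3.22 to 3.36% with Comb and 0.868 to 0.886% with DMSO. With scaling factors computed without mitochondrial and non-polyadenylated RNAs, an alternative chosen after seeing the data, the counts of called genes among the 40 were the same. Over all genes tested they shifted slightly, such as 5341 lower and 5237 higher for ERKi against DMSO, where the main fit had 5346 and 5232.

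Together the 40 genes summed to 7726 ± 52.7 CPM with ABT199, 3611 ± 58.9 CPM with ERKi, 5035 ± 67.8 CPM with Comb and 7636 ± 96.4 CPM with DMSO (SD, n = 3 each). The ERKi sum was 47.3% of the DMSO sum and the Comb sum 65.9%, and the groups did not overlap apart from ABT199 and DMSO. NCL alone made up 25.9 to 30.5% of the sum, depending on the library. Between genes, levels were compared per kb of exon: with DMSO, NCL led at 325 CPM per kb, followed by DDX21 (117), NOLC1 (115), FBL (96.6) and NOP10 (89.1), and PPAN (2.46) and RRN3 (0.491) were lowest. Over the 39 genes without RRN3, the median coefficient of variation was 2.36% with ABT199, 3.76% with ERKi, 2.41% with Comb and 7.56% with DMSO. The largest in these groups were 16%, 16.8%, 12.5% and 17.7%, and RRN3 had 102%, 74.4%, 7.88% and 50%.

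**Figure D1:**
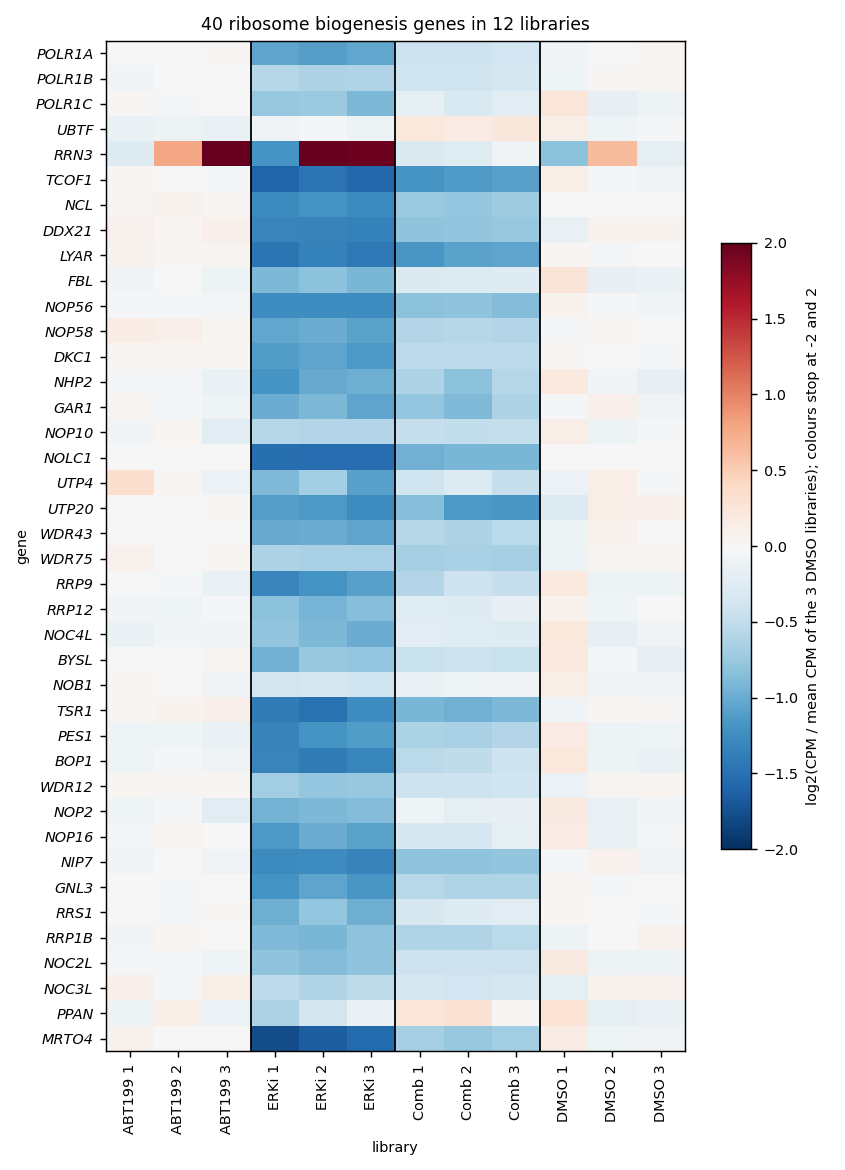
Levels of the 40 genes (rows) in the 12 libraries (columns, grouped as ABT199, ERKi, Comb and DMSO), as log2 of CPM over the mean of the DMSO libraries. The ERKi columns are lowest, the Comb columns lie between ERKi and DMSO for most rows, the ABT199 columns resemble DMSO, and RRN3 swings between libraries of the same group.

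RRN3, which carries polymerase I to the rDNA promoter, had counts too uneven to read. They were 34, 69 and 272 with ABT199, 19, 199 and 170 with ERKi, 33, 32 and 37 with Comb, and 24, 67 and 38 with DMSO. These values swung widely within 3 of the groups, and the groups overlapped. The gene has near copies in the table (RRN3P1, RRN3P2 and RRN3P3, which had more counts than RRN3 itself in most libraries) and overlaps PDXDC1 on the opposite strand, and how reads were shared among them is not given in the sources used here. It was not called between ERKi and DMSO (1.55, SE 0.69, adjusted p = 0.0546), but was called higher without DMSO replicate 2 (2.01, 0.0375), ABT199 replicate 1 (0.0354) or 3 (0.0217) or ERKi replicate 1 (2.05, 0.00547). Some ranges below leave it out and say so.

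The first comparison, ERKi against DMSO, addressed ERK inhibition on its own, and nearly all of the genes fell. Of the 40, 37 were called lower and 0 higher at an adjusted p under 0.05 (edgeR), where 35.2% of all genes tested were called lower, 34.5% higher and 69.7% in either direction. DESeq2 also called 37 lower and 0 higher. At an unadjusted p under 0.05 there were 39 of the 40 by edgeR and 38 by DESeq2. Over all genes, edgeR gave 10906 of 15173 such genes. The median log2 fold change was -1 over the 40 genes and 0.01 over all genes tested. In 37 of 40 genes all ERKi libraries lay below all DMSO libraries, against 35.6% of all genes tested. At least a 2-fold fall was called for 20 of the 40, against 10.6% of all genes.

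In the RNA polymerase I group, TCOF1 (treacle, a nucleolar protein that helps transcribe rDNA) fell most, at -1.55 (SE 0.058, adjusted p = 4.4e-13). It had 53.06, 58.33 and 54.4 CPM with ERKi and 174.87, 156.97 and 153.84 CPM with DMSO, so the groups lay far apart. POLR1A, the largest subunit of the enzyme, fell by 1.06 on the log2 scale, POLR1C, a subunit shared with polymerase III, by 0.8, and POLR1B by 0.6. For POLR1B, the second-largest subunit, the libraries held 108.77, 104.47 and 105.59 CPM with ERKi and 151.29, 163.99 and 167.26 CPM with DMSO. UBTF, which binds and opens the rDNA promoter, was at 237.86, 245.19 and 234.6 CPM with ERKi and at 272.29, 236.33 and 243.84 CPM with DMSO. Those libraries overlapped, and UBTF was not called (-0.07, SE 0.05, adjusted p = 0.231). Of the 39 genes without RRN3, UBTF had the smallest change.

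All 3 nucleolar scaffold genes were called lower with ERKi, as were 35.2% of all genes tested. NCL (nucleolin, an abundant RNA-binding protein of the nucleolus; chromosome 2, 231453531 to 231464484, GRCh38) had 932.21, 987.2 and 927.64 CPM with ERKi and 2263.59, 2240.54 and 2242.07 CPM with DMSO. Its log2 change was -1.24 with an SE of 0.036 (adjusted p = 2.46e-14), with no overlap and little spread in either group. DDX21, an RNA helicase of rRNA processing, fell by 1.34. LYAR, a nucleolar zinc finger protein, had 23.69, 25.45 and 24.03 CPM with ERKi and 66.92, 63.25 and 65.02 CPM with DMSO, a fall of 1.42 (SE 0.052, adjusted p = 4.06e-13). NOLC1, a chaperone that binds snoRNPs and, with TCOF1, polymerase I, stood at 161.68, 159.2 and 159.29 CPM with ERKi and at 457.45, 455.94 and 459.66 CPM with DMSO. It fell by 1.52 (SE 0.036) and had the smallest adjusted p of the 40 genes, 3.52e-15.

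All 7 snoRNP core genes were called lower with ERKi, as were 35.2% of all genes tested. In the box C/D complex, NOP56 was at -1.25, NOP58 at -1.03 and the methyltransferase FBL (fibrillarin) at -0.88. FBL had 112.08, 118.69 and 111.04 CPM with ERKi and 250.74, 187.72 and 191.44 CPM with DMSO, where replicate 1 was the high one. In the box H/ACA complex, the pseudouridine synthase DKC1 (dyskerin) fell by 1.1 (SE 0.04), NHP2 by 1.05, GAR1 by 0.98 and the small subunit NOP10 by 0.58. DKC1 held 122.46, 127.65 and 119.51 CPM with ERKi and 269.92, 264.16 and 260.63 CPM with DMSO, without overlap. Within this complex the fall of NOP10 was the smallest, and a test between subunits was not run.

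Small-subunit factors fell in 10 of 10 cases, from -1.38 to -0.36 with a median of -0.88. All 10 were called, where 35.2% of all genes tested were called lower. TSR1, a GTPase-like factor of late 40S maturation, led with 44.81, 41.84 and 49.28 CPM with ERKi and 112.68, 120.57 and 119.88 CPM with DMSO (-1.38, SE 0.058, adjusted p = 2.11e-12). RRP9, a protein of the U3 snoRNP, was at -1.2 and UTP20 at -1.17. The processome proteins WDR43 (-1.02), UTP4 (-0.87) and WDR75 (-0.64) also fell, as did NOC4L (-0.89), RRP12 (-0.87), which takes part in export of the 40S precursor, and BYSL (-0.83). UTP4 had 24.68, 28.13 and 21.38 CPM with ERKi and 41.75, 49.59 and 44.53 CPM with DMSO. NOB1, the nuclease that makes the final cut of 18S rRNA, moved least of the 10: its 72.95, 74.68 and 71.12 CPM with ERKi lay below 103.21, 89.11 and 89.44 CPM with DMSO, at -0.36 (SE 0.058, adjusted p = 3.14e-05).

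For the 60S subunit, all 3 genes of the PeBoW complex fell: BOP1 (-1.35), PES1 (-1.22) and WDR12 (-0.74). BOP1 had 66.99, 62.72 and 68.14 CPM with ERKi and 194.54, 155.7 and 153.27 CPM with DMSO, again with a high DMSO replicate 1 and no overlap. Of the other 10 60S factors, 9 were called lower, where 35.2% of all genes tested were. MRTO4, a relative of the ribosomal stalk protein P0 (chromosome 1, 19251805 to 19260128, GRCh38), fell most of all 40 genes, at -1.65 with an SE of 0.072 (adjusted p = 3.26e-12). It had 30.98, 33.71 and 36.47 CPM with ERKi and 117.85, 99.51 and 100.53 CPM with DMSO, far apart.

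NIP7 (-1.29), the GTPase GNL3 or nucleostemin (-1.13) and NOP16 (-1.07) followed. Falls were smaller for RRS1 (-0.9), NOP2 (-0.9), an rRNA cytosine methyltransferase, RRP1B (-0.87), NOC2L (-0.82) and NOC3L (-0.54). NOP2 had 69.07, 70.85 and 72.15 CPM with ERKi and 149.94, 119.34 and 127.66 CPM with DMSO. PPAN was not called, with 4.12, 4.9 and 5.78 CPM with ERKi and 7.63, 5.6 and 5.79 CPM with DMSO (-0.36, adjusted p = 0.0521), and it was called lower without DMSO replicate 2 (-0.45, adjusted p = 0.0316), DMSO replicate 3 (-0.43, 0.0426) or ERKi replicate 3 (-0.49, 0.0217). PPAN overlaps the read-through gene PPAN-P2RY11 on the same strand, so its low count is uncertain.

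**Figure D2:**
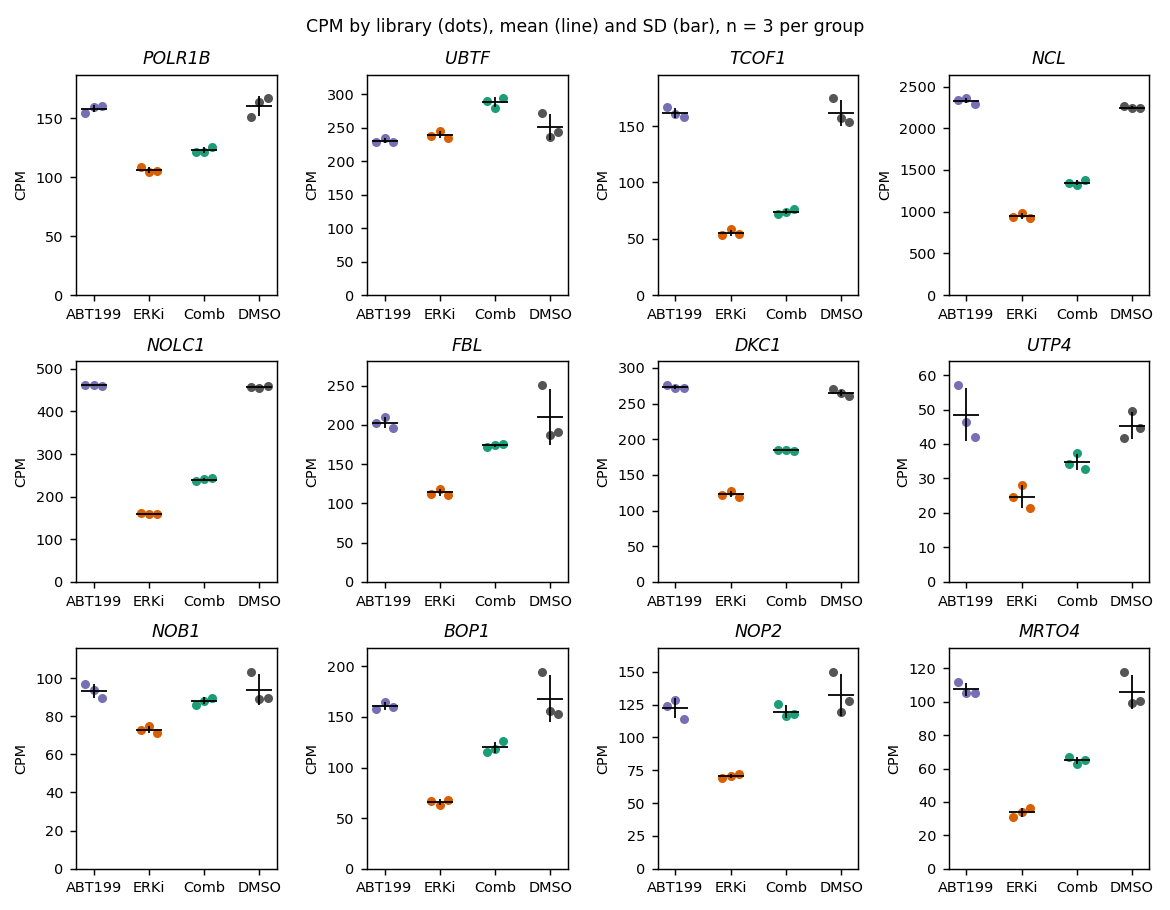
CPM of 12 of the genes by library (dots), with group means (lines) and SD (bars), n = 3 per group; axes start at 0. For 11 of the 12 the ERKi dots lie below those of every other group, and for UBTF the Comb dots are the highest.

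Genes of the same pathways outside the 40 fell as well. Of 126 tested ribosome biogenesis factors that are not among the 40, 115 fell and 4 rose with ERKi, with a median of -0.72. Fell and rose mean called here, where 35.2% of all genes tested were called lower, 34.5% higher and 69.7% in either direction. By role, 49 of 51 other small-subunit factors fell (such as EMG1, an rRNA methyltransferase, at -1.27, and UTP11 at -1.23), and 46 of 48 other 60S factors (EBNA1BP2 at -1.57, LAS1L at -1.23). Of 16 tested other polymerase I subunits and factors 11 fell and 1 rose, with POLR1E at -0.96 and POLR1F at -0.84, and of 11 snoRNP assembly genes 9 fell and 1 rose, with the ATPases RUVBL1 at -1.62 and RUVBL2 at -1.55. All 15 genes of the exosome and related nucleases fell (median -0.86), among them EXOSC7 (-1.25) and EXOSC2 (-1.24). Polymerase III genes fell in 15 of 20 cases with a median of -0.57, with the subunit POLR3G at -1.84, and the subunits particular to polymerase II in 6 of 7 with a median of -0.51. MYC, a transcription factor that activates many of these genes, had 159.88, 167.14 and 157.98 CPM with ERKi and 334.67, 296.8 and 286.48 CPM with DMSO (-0.92, SE 0.056, adjusted p = 2.45e-10). Of the 9 genes of MYC and its partners, 3 fell and 5 rose, with a median of 0.23.

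MYC is known to bind the E-box CACGTG. The promoters of the 40 genes were searched for these letters, which read the same on both strands. RefSeq (GRCh38.p14) gave a window of 250 bases before to 50 after the start for 33 of the 40 genes. Only the first window listed for each gene was used, and other starts of a gene were not searched. The motif occurred in 11 of them (33.3%), in 10.1% of the 11022 windows of tested genes and in 7.43% of all 27305 windows. The 11 genes with it had a median of -0.9 with ERKi and ran from -1.65 to -0.54, and the 22 without it had a median of -1.02, and the ranges of both sets overlapped. The windows below, 75 bases before to 25 after the start and 5′ to 3′ on the gene's strand, show 5 genes with the E-box, in capitals, and 3 without it that fell by more than 1 on the log2 scale.
MRTO4, chr1:19251730-19251829, plus strand: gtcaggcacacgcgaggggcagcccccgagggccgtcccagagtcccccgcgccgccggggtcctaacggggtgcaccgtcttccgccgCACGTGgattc
FBL, chr19:39846355-39846454, minus strand: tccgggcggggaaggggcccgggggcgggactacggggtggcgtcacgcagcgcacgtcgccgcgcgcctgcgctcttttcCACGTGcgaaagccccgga
UTP20, chr12:101280030-101280129, plus strand: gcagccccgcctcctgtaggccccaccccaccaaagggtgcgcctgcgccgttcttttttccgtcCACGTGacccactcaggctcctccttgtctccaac
RRP9, chr3:51941880-51941979, minus strand: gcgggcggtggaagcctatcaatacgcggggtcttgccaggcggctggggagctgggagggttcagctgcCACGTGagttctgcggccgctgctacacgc
PES1, chr22:30591886-30591985, minus strand: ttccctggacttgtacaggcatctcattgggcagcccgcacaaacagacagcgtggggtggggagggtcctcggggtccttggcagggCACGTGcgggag
NCL, chr2:231464460-231464559, minus strand: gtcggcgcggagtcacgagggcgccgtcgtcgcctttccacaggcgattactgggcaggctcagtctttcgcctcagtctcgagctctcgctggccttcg
LYAR, chr4:4290130-4290229, minus strand: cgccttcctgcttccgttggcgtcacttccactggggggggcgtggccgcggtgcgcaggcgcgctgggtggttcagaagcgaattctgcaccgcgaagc
DKC1, chrX:154762789-154762888, plus strand: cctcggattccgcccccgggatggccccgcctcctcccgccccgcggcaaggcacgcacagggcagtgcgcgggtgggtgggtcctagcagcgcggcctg
The first base of the E-box lay 10 bases before the start in UTP20 and 5 before it in RRP9, and, counting the start as base 1, at base 7 in FBL, 14 in PES1 and 15 in MRTO4. The PES1 window lies inside the RefSeq span of the gene (30576625 to 30607013), so it is not at the outermost start. A match is a run of letters and not a measured binding site. The part of MYC in the changes of these genes was not tested.

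For venetoclax alone, ABT199 against DMSO, 0 of the 40 genes were called in either direction by edgeR, DESeq2 or limma-voom, where edgeR called 0.382% of all genes tested lower, 0.0198% higher and 0.402% in either direction. At an unadjusted p under 0.05 there were 3 by edgeR and 2 each by DESeq2 and limma-voom. By edgeR, 1382 of all 15173 genes tested lay under 0.05, so 3 of 40 is not above that share. Without RRN3 the log2 fold changes ran from -0.12 to 0.1 with standard errors of 0.035 to 0.16. UBTF and NOP58 had the smallest p, each 0.0261 before and 0.491 after adjustment. UBTF had 228.84, 234.91 and 227.86 CPM with ABT199 and 272.29, 236.33 and 243.84 CPM with DMSO (-0.12). NOP58 had 244.11, 236.58 and 229.29 CPM with ABT199 and 216.38, 225.31 and 219.75 CPM with DMSO (0.1). Neither pair of groups overlapped. Of the 40 genes, 1 lay below DMSO without overlap and 5 above it, where 6.33% and 6.87% of all genes tested did. RRN3 was at 1.6, with its high count in ABT199 replicate 3.

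With both drugs, Comb against DMSO, most genes were again lower. Of the 40, 35 were called lower and 1, UBTF, higher, where 33.4% of all genes tested were called lower, 30.4% higher and 63.8% in either direction. The median was -0.48, against -0.01 over all genes, and 3 genes fell at least 2-fold: TCOF1 (-1.13, SE 0.057), LYAR (-1.1) and UTP20 (-1.05). Such falls were called in 6.85% of all genes tested, so 3 of 40 is near that share. TCOF1 had 71.66, 74.15 and 76.27 CPM with Comb, and LYAR 29.15, 30.87 and 31.17 CPM, both below every DMSO library. NOLC1 and TSR1 were at -0.93, NOP56 at -0.83, NIP7 at -0.8, DDX21 at -0.79, GAR1 at -0.75 and NCL at -0.74. In NCL the Comb libraries held 1338.7, 1320.6 and 1378.55 CPM.

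UBTF rose, with 289.47, 279.71 and 293.94 CPM with Comb and 272.29, 236.33 and 243.84 CPM with DMSO, at 0.2 (SE 0.05, adjusted p = 0.00226) and without overlap. Not called were NOP2 (-0.14), PPAN (0.19), NOB1 (-0.09) and RRN3 (-0.2). With library totals NOP2 (-0.18, adjusted p = 0.0334) and NOB1 (-0.13, 0.0492) were called, which made 37 lower. NOP2 had 125.3, 116.24 and 117.71 CPM with Comb, which overlapped its DMSO libraries, and it was called lower without DMSO replicate 2 (-0.22, adjusted p = 0.0132). NOB1 had 86.08, 88.07 and 89.74 CPM with Comb, overlapping DMSO as well. POLR1C (-0.23) and NOC4L (-0.24) lost their calls without DMSO replicate 1 (-0.1, adjusted p = 0.134, and -0.13, 0.14). The adjusted p also passed 0.05 without Comb replicate 2 (0.0945 for POLR1C, 0.0548 for NOC4L) or 3 (0.0514 for POLR1C, 0.0621 for NOC4L), and for NOC4L without Comb replicate 1 (0.0535). In a fit of the Comb and DMSO libraries alone it was 0.0909 for POLR1C and 0.0763 for NOC4L.

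**Figure D3:**
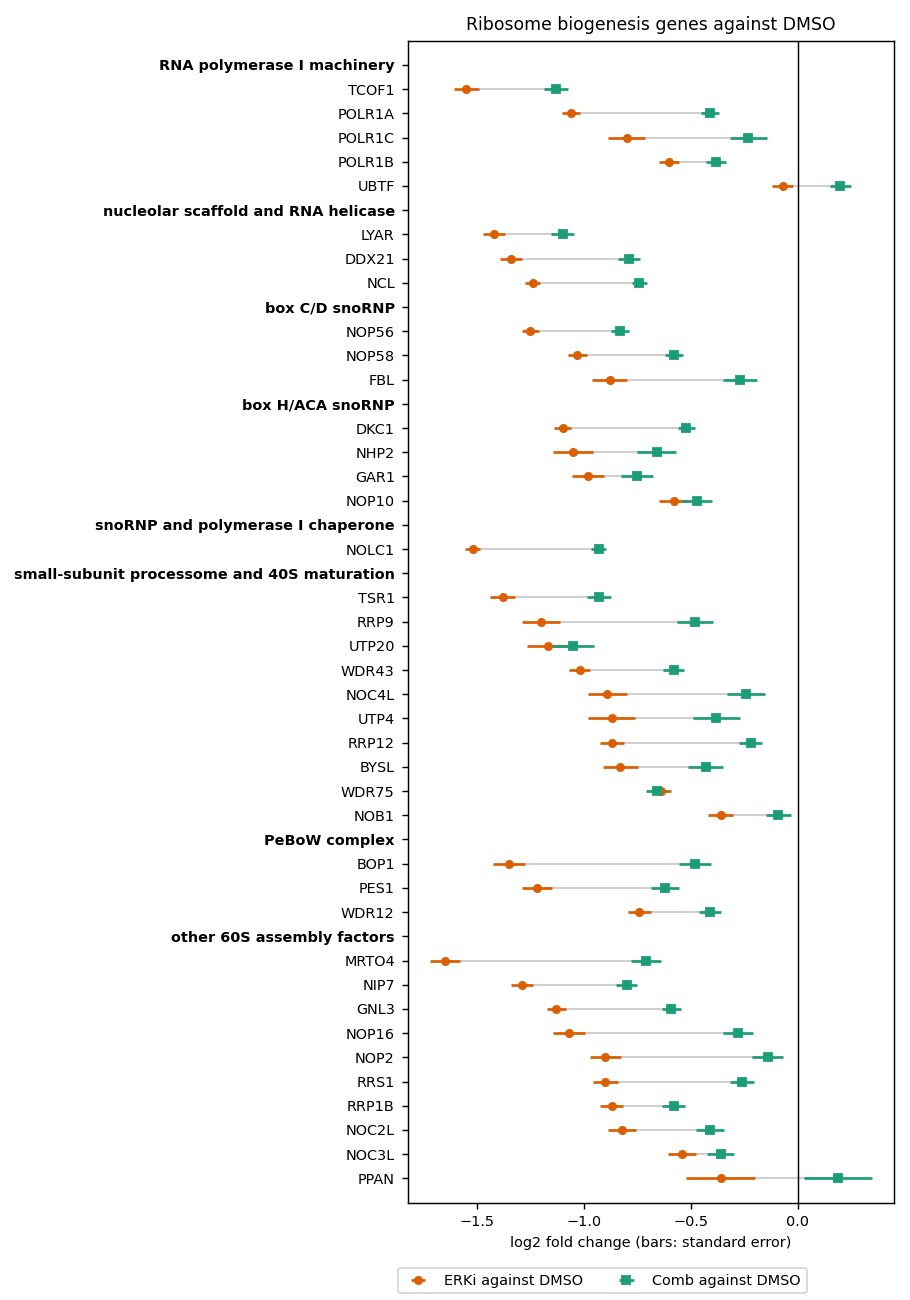
Log2 fold changes against DMSO of 39 genes by role, for ERKi (circles) and Comb (squares), with standard errors as bars; RRN3 is left out for its swinging counts. Both contrasts share the DMSO libraries. Comb squares lie nearer 0 than ERKi circles for most genes, while WDR75, UTP20 and NOP10 have nearly equal values.

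As a share of the DMSO mean, the 39 genes without RRN3 stood at 31.8% (MRTO4) to 95.4% (UBTF) with ERKi, median 49.5%. With Comb they stood at 45.7% (TCOF1) to 115% (UBTF), median 71.5%. These values share the same DMSO libraries.

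Comb against ERKi asked what venetoclax adds to ERK inhibition, and these genes were higher with both drugs than with ERKi alone. Of the 40, 36 were called higher and 1, RRN3, lower, where 26.5% of all genes tested were called higher, 24.3% lower and 50.9% in either direction. The median was 0.47, against 0 over all genes, and in 37 of 40 all Comb libraries lay above all ERKi libraries and in 0 below (31.1% and 29.8% of all genes). With library totals in place of TMM, 33 were higher and 2 lower, the median of all genes was -0.13 and that of the 40 was 0.35, and 65.2% of all calls were lower, against 47.9% with TMM. Of the 126 other ribosome biogenesis factors, 76 were higher and 7 lower, with a median of 0.2. By role, 35 of 51 other small-subunit factors were higher and 0 lower (median 0.27), and 30 of 48 other 60S factors higher and 2 lower (0.2). Of 16 other polymerase I factors 8 were higher and 3 lower (0.12). Of 11 snoRNP assembly genes 3 were higher and 2 lower (-0.06).

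MRTO4 had the highest value of the genes called higher, with 66.85, 62.45 and 65.38 CPM with Comb and 30.98, 33.71 and 36.47 CPM with ERKi (0.94, SE 0.073, adjusted p = 3.61e-08). BOP1 had 115.84, 117.92 and 126.3 CPM with Comb and 66.99, 62.72 and 68.14 CPM with ERKi (0.86, SE 0.077, adjusted p = 1.58e-07). NOP16 was at 0.78, with 50.3, 49.94 and 55.27 CPM with Comb and 28.57, 31.64 and 30.04 CPM with ERKi. None of these libraries overlapped. All 10 of the other 60S factors were called higher, with a median of 0.55, where 26.5% of all genes tested were. NOP2 (0.76), RRS1 (0.64), PES1 (0.6), GNL3 (0.55), PPAN (0.55), NIP7 (0.49), NOC2L (0.42), WDR12 (0.33) and RRP1B (0.29) were among the 60S genes called. NOC3L (0.18) was called too, but not without ERKi replicate 1 or 2 or any 1 of the Comb libraries (adjusted p of 0.0515 to 0.102), nor with library totals (0.06, 0.492).

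In the 40S group 8 of 10 were called higher, where 26.5% of all genes tested were. RRP9 led (0.71), followed by RRP12 (0.65), NOC4L (0.65), UTP4 (0.49), TSR1 (0.45), WDR43 (0.44), BYSL (0.39) and NOB1 (0.27). WDR75 had 75.05, 75.67 and 74.81 CPM with Comb and 76.93, 75.6 and 75.27 CPM with ERKi (-0.01, SE 0.051), and UTP20 had 51.42, 41.92 and 41.49 CPM with Comb and 43.25, 41.89 and 38.7 CPM with ERKi (0.12, SE 0.1). Those libraries overlapped, and neither gene was called. The scaffold and snoRNP genes were mostly higher: FBL (0.61), NOLC1 (0.59), DKC1 (0.58), DDX21 (0.55), NCL (0.5), NOP58 (0.45), NOP56 (0.42), NHP2 (0.39) and LYAR (0.32) were called, while NOP10 was at 0.11 (adjusted p = 0.216). GAR1 (0.23) lost its call without ERKi replicate 1 (adjusted p = 0.0522) or 3 (0.0876), without Comb replicate 3 (0.14, 0.164) and with library totals (0.11, 0.263).

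Among the polymerase I genes, POLR1A was at 0.65, with 126.57, 126.85 and 129.92 CPM with Comb and 82.24, 79.62 and 82.81 CPM with ERKi. POLR1C (0.57), TCOF1 (0.42), UBTF (0.27) and POLR1B (0.21) were higher as well, POLR1B not with library totals (0.09, adjusted p = 0.136). RRN3 (-1.75, SE 0.71, adjusted p = 0.0492) lost its call with DESeq2 (0.0946), with limma-voom (0.306), without DMSO replicate 3 (0.0519), without ERKi replicate 2 or 3 (0.189 and 0.139) and without any 1 of the Comb libraries (0.0979 to 0.116). POLR1F, a polymerase I subunit not among the 40, was lower, with 83.86, 82.76 and 81.98 CPM with Comb and 123.45, 124.24 and 116.58 CPM with ERKi (-0.55, SE 0.063, adjusted p = 2.55e-06). MYBBP1A, a nucleolar MYB-binding protein, was higher (0.81), and MYC had 242.66, 234.32 and 243.75 CPM with Comb and 159.88, 167.14 and 157.98 CPM with ERKi (0.57, SE 0.057, adjusted p = 5.24e-07).

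Setting the calls side by side, 32 of the 40 genes were lower than DMSO with ERKi and with Comb and higher with Comb than with ERKi, as were 11.5% of all genes tested. Another 3, UTP20, WDR75 and NOP10, were lower than DMSO in both and not called between Comb and ERKi, as were 11.4% of all genes. NOP2 and NOB1, 2 of the 40, were lower with ERKi but not called between Comb and DMSO, as were 7.80% of all genes. These comparisons share libraries pairwise, so the counts are not independent of each other.

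**Figure D4:**
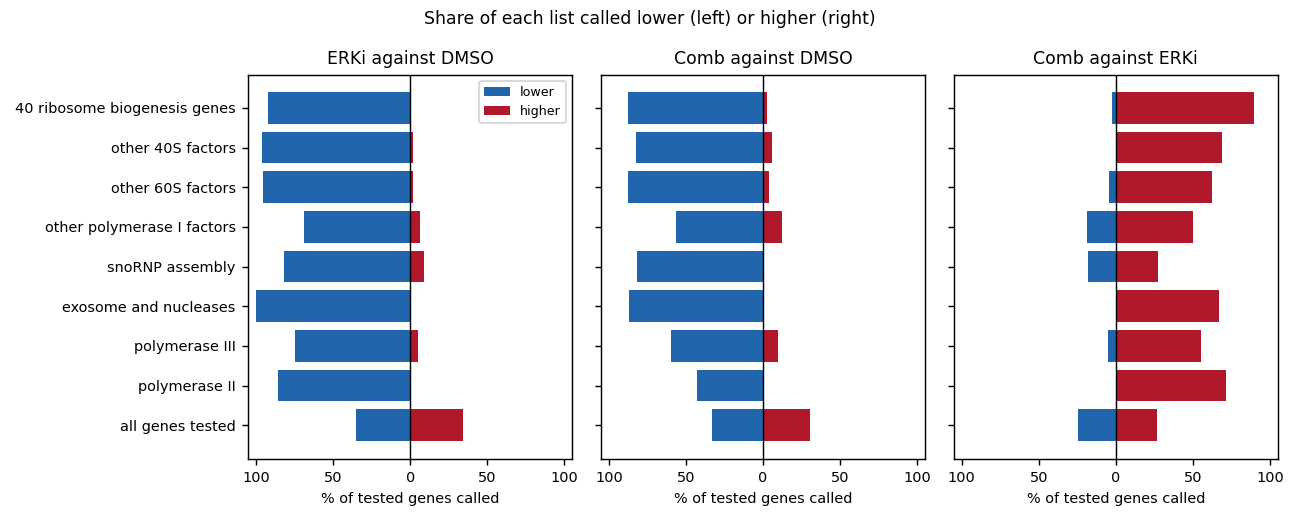
Share of each gene list called lower (blue, to the left) or higher (red, to the right), in % of its tested genes, for ERKi against DMSO, Comb against DMSO and Comb against ERKi. The 40 genes and the other 40S and 60S factors lean to lower in the first 2 panels and to higher in the third, while all genes tested split almost evenly.

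Comb against ABT199 asked what ERK inhibition does when venetoclax is present, and 35 of the 40 genes were lower and 1, UBTF, higher (0.32, SE 0.05, adjusted p = 2.64e-05), where 34.2% of all genes tested were lower, 32.1% higher and 66.2% in either direction. Without RRN3 the values ran from -1.15 (LYAR) to 0.32, with a median of -0.48. TCOF1 was at -1.13, with 71.66, 74.15 and 76.27 CPM with Comb and 166.85, 160.41 and 158.41 CPM with ABT199. UTP20 (-1.05), TSR1 (-1) and NOLC1 (-0.94) followed, without overlap. NOP2 (-0.03), NOB1 (-0.08), NOC4L (-0.17) and PPAN (0.22) were not called. FBL (-0.22) lost its call without ABT199 replicate 2 (adjusted p = 0.0699) or Comb replicate 1 (0.0632), and RRP12 (-0.16) without Comb replicate 2 (0.051). POLR1C (-0.23) did so without ABT199 replicate 1 (0.069) or 3 (0.0584) or Comb replicate 2 (0.0968) or 3 (0.0528). RRN3 (-1.8) did so without ABT199 replicate 3 (-0.55, 0.494) or any 1 of the Comb libraries (0.0715 to 0.0888), with DESeq2 (0.0679) and with limma-voom (0.243). NOC4L was called without DMSO replicate 1 (0.0326).

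The departure of Comb from the sum of both single effects, tested as an interaction, asked whether venetoclax acted otherwise when ERK was inhibited. It was called above the sum for 33 of the 40 genes and below it for 1, RRN3, where 21.3% of all genes tested were above, 18.0% below and 39.2% in either direction. The median was 0.45 against 0.01 over all genes. With library totals 26 of the 40 were above the sum, the median of all genes was -0.1, and 61.7% of all calls were below the sum, against 45.8% with TMM. MRTO4 and BOP1 had the highest values, both 0.93, followed by NOP2 (0.88), RRP9 (0.77) and NOP16 (0.77). Not called were GAR1, NOP10, UTP4, UTP20, WDR75 and NOC3L, with values from -0.06 to 0.39. Without DMSO replicate 1, GAR1 (0.27), NOC3L (0.2), UTP20 (0.25) and UTP4 (0.45) were called above the sum. UTP4 was also called without ABT199 replicate 1 (0.53) or ERKi replicate 2 (0.5), and GAR1 without Comb replicate 2 (0.3). DESeq2 called UTP4 as well (0.4, adjusted p = 0.0349). With no filter on low counts edgeR called UTP4 (0.43, 0.000445) and GAR1 (0.28, 0.0497). BYSL (0.37) lost its call without ERKi replicate 1 (0.3, adjusted p = 0.0559).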

How the data were processed

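The tools named per the submitters' processing notes are DESeq2, HISAT2 and HTSeq, with the build hg38; their versions, the annotation and the strand setting were not given in the sources used here. The authors deposited raw read counts per gene symbol for 12 libraries, and 0 rows named no gene. Counts were analysed here with edgeR 4.0.16 in R 4.3.3: filterByExpr (minimum count 10, minimum total count 15), TMM factors, 1 fit of all 12 libraries with 1 coefficient per group (8 residual degrees of freedom), quasi-likelihood F tests and Benjamini-Hochberg adjustment over 15173 genes. Genes were called at an adjusted p under 0.05. Standard errors are the log2 fold change over the square root of F, with a prior count of 0.125. The common biological coefficient of variation was 0.0727. Gene positions and promoters are RefSeq's (GRCh38.p14), and exon lengths and overlaps are GENCODE's on GRCh38.

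The members and lists were chosen with earlier results of these data known. Values by library were given for genes with the largest and smallest effects, those called against the majority, those with the smallest p for ABT199 and 1 fixed gene per role. No other member was left out of the counts. Alternatives were RLE factors, library totals, DESeq2 1.42.0, limma-voom (limma 3.58.1), tests with no low-count filter or with genes of at least 1 CPM in 3 libraries, a block for replicate number, fits of only the 2 groups at hand, each library left out in turn and TMM without mitochondrial and non-polyadenylated RNAs. One marker list is not reported here. The pipeline was tested on simulated counts. Figures were drawn with matplotlib 3.10.9.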

Additional observations from a re-analysis of the deposited data

Results flagged for a closer look

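The effect of venetoclax differed by test between cells with and without ERKi (the interaction, edgeR, adjusted p under 0.05) for 34 of the 40 genes. Over all genes tested, 39.2% were called in either direction, 21.3% above the sum and 18.0% below it. Values are log2 differences of the venetoclax effect with ERKi minus that without it. Among polymerase I genes they were 0.64 for POLR1A, 0.24 for POLR1B, 0.58 for POLR1C, 0.39 for UBTF, 0.42 for TCOF1 and -3.35 for RRN3. Scaffold genes had 0.45 (NCL), 0.48 (DDX21) and 0.26 (LYAR), and NOLC1 had 0.57. In snoRNPs the values were 0.66 for FBL, 0.44 for NOP56, 0.35 for NOP58, 0.54 for DKC1 and 0.45 for NHP2. For 40S factors they were 0.44 (WDR43), 0.77 (RRP9), 0.71 (RRP12), 0.72 (NOC4L), 0.37 (BYSL), 0.28 (NOB1) and 0.38 (TSR1). PeBoW genes had 0.7 (PES1), 0.93 (BOP1) and 0.3 (WDR12). The remaining 60S factors had 0.88 (NOP2), 0.77 (NOP16), 0.54 (NIP7), 0.55 (GNL3), 0.65 (RRS1), 0.29 (RRP1B), 0.46 (NOC2L), 0.58 (PPAN) and 0.93 (MRTO4). RRN3 rested on swinging counts and lost its call without ABT199 replicate 3 (-2.09, adjusted p = 0.0744), and PPAN without DMSO replicate 1 (0.43, 0.139), ABT199 replicate 1 (0.0979) or 3 (0.1), ERKi replicate 1 (0.127) or 2 (0.0815), or Comb replicate 1 (0.0964) or 2 (0.112), with the filter of 1 CPM in 3 libraries (0.0527) and with the replicate block (0.0702). RRN3 was also not called with limma-voom (0.16). With library totals in place of TMM, the adjusted p was 0.0888 for LYAR, 0.147 for POLR1B, 0.0854 for NOB1, 0.0873 for RRP1B, 0.055 for WDR12, 0.0739 for BYSL and 0.101 for PPAN, so these 7 were not called there.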

How the results depend on the processing

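No gene called in the report changed sign under any alternative run. With each library left out in turn, the genes lower with ERKi than DMSO numbered 37 to 38 and those higher 0 to 1, Comb against DMSO gave 33 to 36 lower, Comb against ERKi 34 to 36 higher and 0 to 1 lower, and the interaction 31 to 36 above and 0 to 1 below the sum. In the main fit, 35.2% of all genes tested were called lower with ERKi than DMSO and 33.4% lower with Comb than DMSO. There, 26.5% were called higher with Comb than ERKi and 21.3% above the sum. The count of genes higher with ERKi than DMSO was 1 in place of 0, RRN3 in each case, with library totals, with no filter and with only the libraries compared. With the replicate block it was also 1. ABT199 against DMSO gave 1 higher gene, again RRN3, with no filter. For Comb against ERKi the genes lower were 2 with library totals (RRN3 and WDR75) and 0 with DESeq2 and with limma-voom, and limma-voom called 0 below the sum. The labels state no pairing, so the replicate numbers were not taken as pairs. Deviations of same-numbered libraries from their group means correlated at -0.074 to 0.094 over 18 pairs. In 17 of 36 comparisons, each with 3 libraries to match, a library matched its own number best, so pairing cannot be judged from this. The epithelial marker KRT19 had 0.75, 0.66 and 1.25 CPM in replicate 2 of DMSO, ABT199 and ERKi and 0 in every other library. CDH1 was seen in the same libraries only, at 0.14 CPM or less, while KRT18 was seen in others too. Whether this trace reflects shared handling was not tested. The replicate block left the other counts of called members the same. In the interaction, though, PPAN lost its call with it (0.57, adjusted p = 0.0702) and UTP4 gained one (0.4, 0.0295). A fit of only the libraries compared gave no interaction. The cause of these changes was not tested. PPAN, at 4.12 to 7.63 CPM in ERKi and DMSO, had a standard error of 0.16, and the part of depth in it was not tested.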
